A study of Homo sapiens with 38 samples.

Results

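The response of HT-29 cells to glucose starvation (GS) was described from 6 of the 38 arrays of a series on the unfolded protein response of tumour cells. HT-29 is an established line of epithelial cells from a human colorectal adenocarcinoma. The 6 arrays were those titled as HT-29 GS replicates 1, 2 and 3 and HT-29 control replicates 1, 2 and 3, and the descriptions name for each starved culture the control of the same number. Starved cultures 1 and 2 were held without glucose for 18 h and starved culture 3 for 14 h. The labels give the shorter time as a match to an HT-29 derivative without mitochondrial DNA, which 18 h of starvation damaged. All 6 cultures kept their mitochondrial DNA (label: present), received no inhibitor and came from 1 line, and the labels give no time or medium for the controls. Parental HT-1080 fibrosarcoma cells, starved for 18 h in 2 cultures with 1 named control each, were described only to show where HT-29 differed. The fit behind every p-value held all 38 arrays, HT-1080 arrays included. Only treated groups with more than 1 array informed its spread: HT-29 GS, HT-1080 GS and HT-1080 given 2-deoxyglucose. That spread had 5 residual degrees of freedom, against 2 with the 6 HT-29 arrays alone. The labels do not say that the cultures came from separate experiments. The p-values therefore reflect no more than the scatter among replicate cultures of the series, which may be technical. In the fit of the starvation effect, that scatter also holds the difference between the 14 h and the 18 h cultures. The number of arrays limits the precision throughout.

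RNA was read on Affymetrix U133 Plus 2.0 arrays as MAS5 signals, a linear measure of the brightness of a probe set. Every signal given here was scaled so that each array had the same 2% trimmed mean. Before scaling, that mean lay between 122 and 131 on the 6 arrays. The 3′ to 5′ signal ratio of GAPDH, a check of RNA length, lay between 0.978 and 1.03. That of ACTB was 1.04 and 1.06 in starved culture 3 and its control and 1.21 to 1.30 in the other 4 cultures. Of 14 colon epithelial markers 10 were tested, and all 10 averaged at least 100 in the controls, with KRT8, KRT18 and EPCAM among them. CDX1, CDX2, CDH17 and GPA33 were not tested and did not exceed 34.0 on any of the 6 arrays. The 10 markers summed to 29199 to 40193 in the controls and 29518 to 39537 in the starved cultures, and none of them passed the test in either direction. Of 12 mesenchymal markers 8 were tested, none averaged 100 in the controls, and their sum was 94.5 to 170 in the controls and 125 to 262 in the starved cultures. FN1 and VIM rose among them (log2 changes 1.31 and 0.67), from at most 62.1 and 31.7 in the controls to at most 125 and 57.4 in the starved cultures, and the other 6 did not pass. Culture pair 2 stood apart from the others: KRT20, a keratin of differentiated colon cells, read 2892 in its control and 3903 in its starved culture against 12.6 to 196 in the other 4. Each starved culture was compared with the control of its own pair.

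Cells meet a shortage of glucose partly through the endoplasmic reticulum (ER), since sugar is needed to build the glycans of secreted proteins. Misfolded proteins there set off the unfolded protein response (UPR), whose sensors are IRE1 (gene ERN1), PERK (EIF2AK3) and ATF6. IRE1 splices the mRNA of XBP1, and XBP1 and ATF6 bind the ER stress element in promoters of ER chaperones. PERK phosphorylates eIF2alpha, which lowers protein synthesis but favours translation of ATF4. ATF4, also reached through amino acid shortage, binds sites known as CARE and drives genes of amino acid supply and stress.

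The 250 bases before the start of 4 genes are shown. Among 8 stress genes searched, all of which rose, these are the ones whose promoters held the whole ER stress element or a CARE core. The sequences come from RefSeq's promoters on GRCh38.p14, which held an entry for each of the 8 stress genes searched. HSPA5 lies at chr9:125241344-125241593 (minus strand), HERPUD1 at chr16:56931892-56932141 (plus), ASNS at chr7:97872409-97872658 (minus, the first of its 2 entries) and CHAC1 at chr15:40953221-40953470 (plus), and each is printed 5′ to 3′ along its gene. Capitals mark the ER stress element in HSPA5, the CARE core TGATGAAA in ASNS, and the CARE core TGATGCAA read on the opposite strand in HERPUD1 and CHAC1.
HSPA5: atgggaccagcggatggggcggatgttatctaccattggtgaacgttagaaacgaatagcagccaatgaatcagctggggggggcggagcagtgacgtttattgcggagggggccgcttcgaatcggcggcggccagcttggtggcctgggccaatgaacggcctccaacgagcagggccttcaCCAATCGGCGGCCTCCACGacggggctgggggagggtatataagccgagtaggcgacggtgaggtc
HERPUD1: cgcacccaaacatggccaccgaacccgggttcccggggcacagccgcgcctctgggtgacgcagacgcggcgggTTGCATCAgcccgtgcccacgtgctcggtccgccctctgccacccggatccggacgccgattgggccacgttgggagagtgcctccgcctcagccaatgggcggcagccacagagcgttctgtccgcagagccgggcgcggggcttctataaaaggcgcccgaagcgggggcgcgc
ASNS: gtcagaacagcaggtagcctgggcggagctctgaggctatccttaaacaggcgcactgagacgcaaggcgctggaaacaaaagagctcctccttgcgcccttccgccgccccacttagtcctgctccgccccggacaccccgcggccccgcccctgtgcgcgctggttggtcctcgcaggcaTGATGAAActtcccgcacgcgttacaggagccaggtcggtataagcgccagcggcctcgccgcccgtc
CHAC1: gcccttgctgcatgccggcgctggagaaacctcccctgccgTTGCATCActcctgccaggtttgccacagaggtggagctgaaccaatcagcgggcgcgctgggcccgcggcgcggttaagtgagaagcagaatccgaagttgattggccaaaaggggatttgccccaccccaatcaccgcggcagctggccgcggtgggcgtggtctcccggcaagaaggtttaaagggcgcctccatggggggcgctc
Both strands of windows of 300 bases, reaching 50 bases past the start, were searched. The ER stress element of HSPA5 begins 66 bases before the start, and the CARE cores begin 176 (HERPUD1), 68 (ASNS) and 209 bases (CHAC1) before it. CCACG, the last part of the ER stress element, stands without the rest of the searched element in the promoters of HERPUD1, CHAC1, TRIB3 and PPP1R15A. The HERPUD1 copy that begins 111 bases before the start directly follows ATTGGG, and other forms of the element were not searched for. None of the searched motifs stands in the promoters of DDIT3 and ATF3. Of all 35116 promoters in that table, 0.0769% hold the whole element, 38.1% hold CCACG (which the element contains), 0.866% hold TGATGCAA and 1.11% hold TGATGAAA. A match describes the letters and is not a measured binding site.

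Glucose starvation changed the RNA of many genes. Of 11457 genes tested, 3101 (27.1%) passed limma at an adjusted p under 0.05, 1334 higher (11.6%) and 1767 lower (15.4%) in the starved cultures. The rises were the steeper: 475 genes rose and 478 fell by more than 1 on the log2 scale, 100 rose and 22 fell by more than 2, and 22 rose but 1 fell by more than 3. The sign was the same in all 3 pairs for 1276 of the genes that rose and 1704 of those that fell. Starved and control signals did not overlap for 843 and 1016 of them, where 10.4% and 12.5% of all genes tested had such separate signals. Without culture 1 the count was 1193, without culture 2 it was 1535, and without culture 3, the 14 h array, it was 4182. In these fits 589 genes rose and 604 fell without culture 1, and 753 rose and 782 fell without culture 2. List counts without a culture, given below, are to be read against these totals. Among the genes with a promoter in the RefSeq table, 10 of the 1124 that rose (0.89%) held the ER stress element, against 15 of all 9411 tested (0.159%) and 0 of the 1492 that fell. These 10 were HSPA5, HSP90B1, CANX, CRELD2, PDIA6, SERP1, XBP1, FICD, EIF2A and SYNPO. The CARE core TGATGCAA stood in 26 of the genes that rose (2.31%), among them AARS1, CARS1, NARS1, SLC1A4, SLC1A5 and CEBPG, against 79 of all 9411 tested (0.839%) and 12 of those that fell (0.804%). The other core, TGATGAAA, stood in 17 of the genes that rose (1.51%), 79 of all tested (0.839%) and 9 of those that fell (0.603%).

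**Figure D1:**
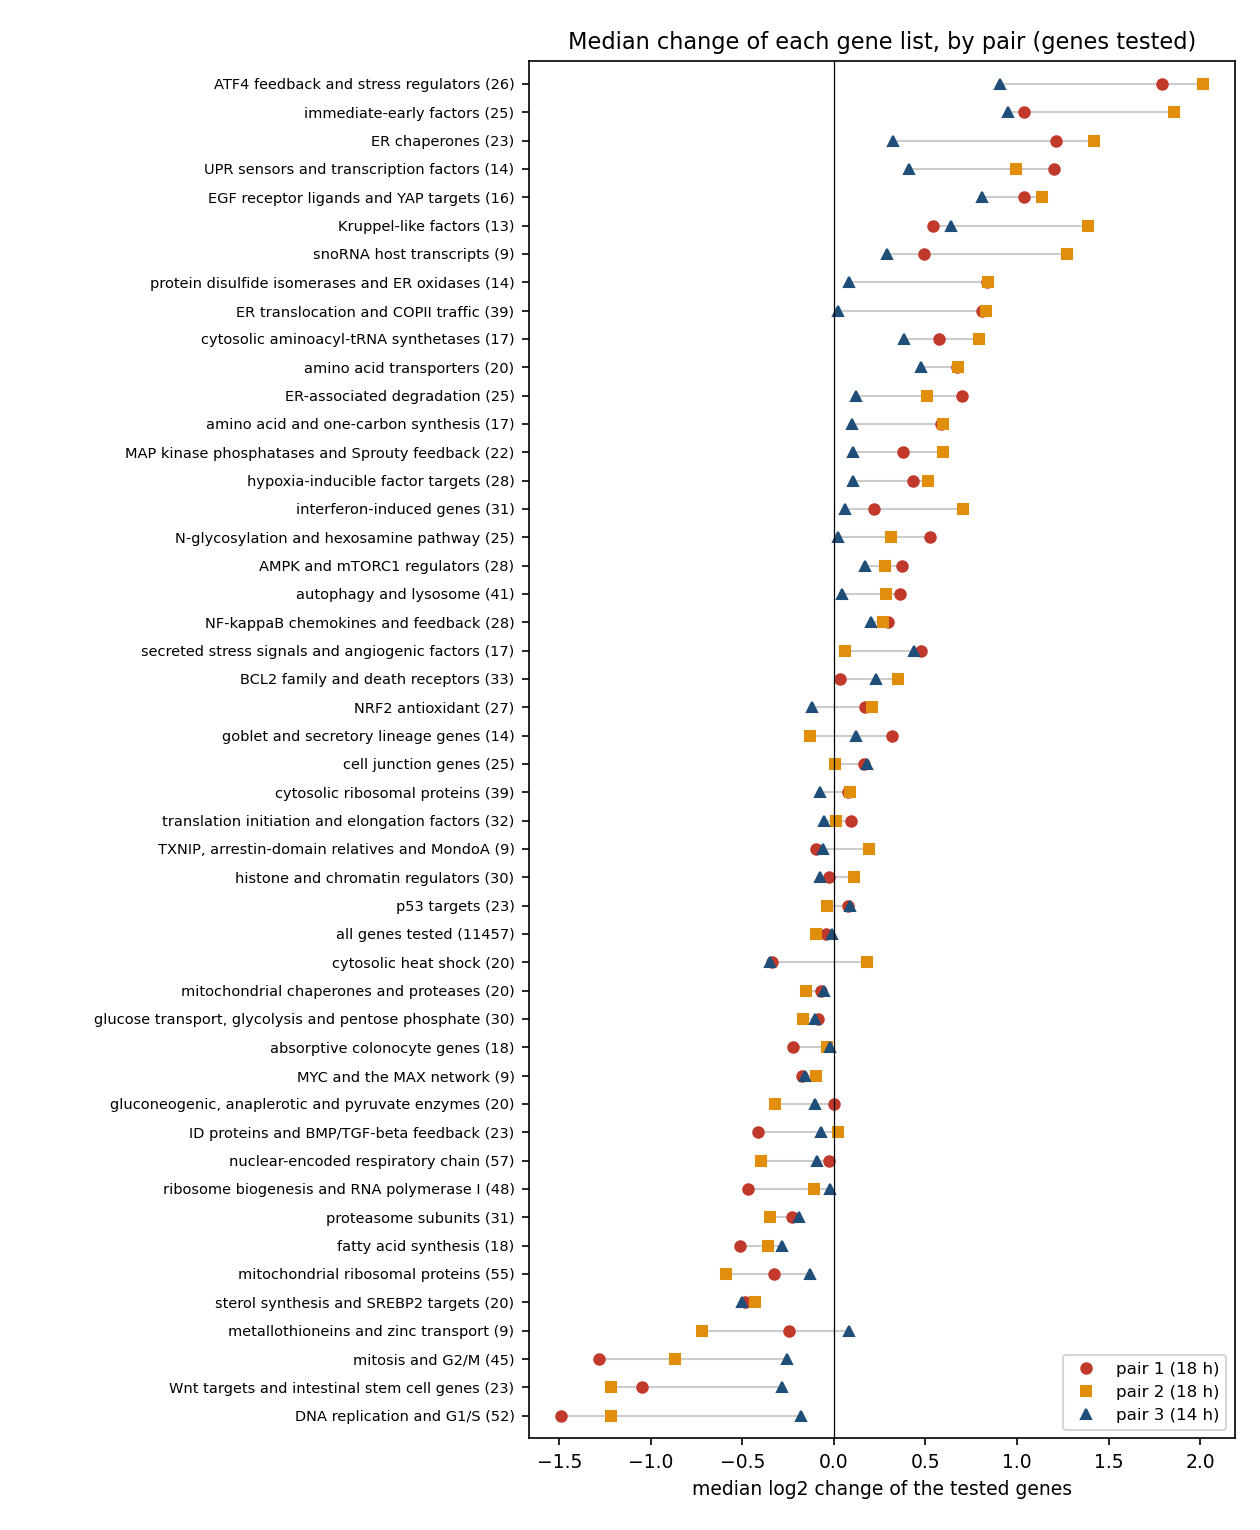
Median log2 change (starved minus own control) of the tested genes of 47 lists and of all genes tested, by culture pair, ordered by the mean of pairs 1 and 2, with the number of genes tested in brackets. ATF4 regulators lie at the top (medians 1.79, 2.01 and 0.91 in pairs 1, 2 and 3) and DNA replication at the bottom (-1.49, -1.21 and -0.18), and the 14 h pair has the median nearest to 0 in 33 of the 47 lists, but not in sterol synthesis.

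Many UPR sensors and transcription factors rose. Of 14 tested, 8 rose and 1 fell (0 fell without culture 1 or without culture 2), with a median log2 change of 0.81 against -0.04 over all genes tested. XBP1 signals were 916, 856 and 951 in controls 1, 2 and 3 and 1931, 3384 and 1741 in starved cultures 1, 2 and 3, a log2 change of 1.31 (SE 0.23, limma adjusted p = 0.00288). ERN1, which encodes IRE1 itself, read 43.0, 55.5 and 47.1 in controls 1, 2 and 3 and 406, 749 and 186 in starved cultures 1, 2 and 3 and rose by 2.86 (SE 0.30, limma adjusted p = 0.000374). In both genes every starved culture lay above every control. EIF2AK3, the gene of PERK, rose by 2.02, CREBRF by 2.10 and CREB3L2 by 0.97, while CREB3L1 fell (log2 change -1.20) from low signals in pairs 1 and 3. ATF4 mRNA read 2651, 2647 and 3316 in controls 1, 2 and 3 and 6663, 6643 and 4963 in starved cultures 1, 2 and 3 and rose by 1.08 (SE 0.17, limma adjusted p = 0.00173). A change in ATF4 or XBP1 mRNA says nothing about translation or splicing, which the arrays do not read.

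Most of the listed ATF4 feedback and stress regulators rose. Of 26 tested, 23 rose and 0 fell, with a median of 1.60. ATF3, a transcription factor of stress, read 20.3, 61.1 and 31.1 in controls 1, 2 and 3 and 2459, 6136 and 1297 in starved cultures 1, 2 and 3, a log2 change of 6.08 (SE 0.49, limma adjusted p = 0.000118), the largest of all genes tested. DDIT3, which encodes the cell death regulator CHOP, read 34.1, 63.3 and 54.7 in controls 1, 2 and 3 and 3284, 3599 and 1679.9 in starved cultures 1, 2 and 3 and rose by 5.63 (SE 0.53, limma adjusted p = 0.000221). Both were close to or below the filter level of 45.5 in the controls, where the offset added before taking logs limits the fold. PPP1R15A, which encodes GADD34, the factor that returns eIF2alpha to its active state, read 82.2, 122 and 82.4 in controls 1, 2 and 3 and 1851, 4173 and 889 in starved cultures 1, 2 and 3 and rose by 4.26 (SE 0.27, limma adjusted p = 2.17e-05). TRIB3, an inhibitor of ATF4 and AKT, read 598, 922 and 722 in controls 1, 2 and 3 and 4662, 8441 and 2808 in starved cultures 1, 2 and 3 and rose by 2.70 (SE 0.24, limma adjusted p = 0.000196). CHAC1, which breaks down glutathione, read 54.4, 70.8 and 48.0 in controls 1, 2 and 3 and 356, 903 and 538 in starved cultures 1, 2 and 3 and rose by 3.17 (SE 0.72, limma adjusted p = 0.00881). In all of these genes the 3 starved cultures lay above the 3 controls, and in each but CHAC1 starved culture 3 was the lowest of the 3. DDIT4 and SESN2, which restrain the growth kinase mTORC1, rose by 3.90 and 3.53, NUPR1 by 2.98, CEBPG by 1.78 and SQSTM1 by 1.46.

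**Figure D2:**
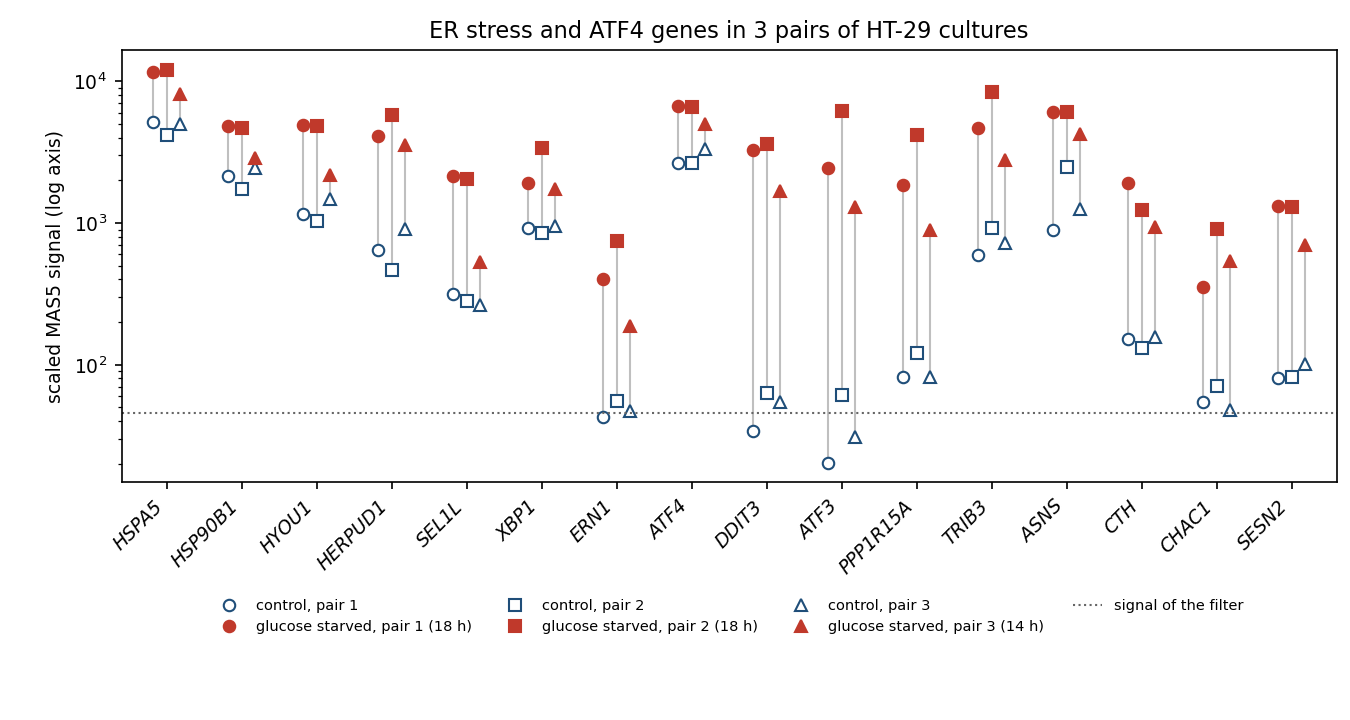
Scaled MAS5 signal (log axis) of 16 ER stress and ATF4 genes, with open symbols for controls, filled symbols for starved cultures, circles and squares for the 18 h pairs, triangles for the 14 h pair, grey lines joining each pair and a dotted line at the filter level of 45.5. Each starved culture lies above its own control in all 16 genes, from the small rise of HSP90B1 at 14 h (2434 to 2891) to that of ATF3 in pair 1 (20.3 to 2459).

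Part of the genes of amino acid supply rose. Of 17 genes of amino acid and one-carbon synthesis 9 rose and 1 fell (5 rose without culture 1 and 5 without culture 2). Of 20 amino acid transporters 9 rose and 3 fell (15%, near the 15.4% of all genes tested). Of 17 cytosolic aminoacyl-tRNA synthetases 11 rose and 1 fell. CTH, which makes cysteine, read 152, 131 and 158 in controls 1, 2 and 3 and 1903, 1227 and 932 in starved cultures 1, 2 and 3 and rose by 3.09 (SE 0.31, limma adjusted p = 0.000295). ASNS, asparagine synthetase, read 891, 2499 and 1262 in controls 1, 2 and 3 and 6047, 6063 and 4280.5 in starved cultures 1, 2 and 3 and rose by 1.93 (SE 0.24, limma adjusted p = 0.000682), with control 2 the highest control. The serine pathway rose by less, with PHGDH at 1.07 and PSAT1 at 0.93. GLUL, glutamine synthetase, was the member that fell (log2 change -1.32), a call lost without culture 1. Among transporters, the neutral amino acid carrier SLC1A4 rose by 2.14, SLC6A9 (glycine) by 2.16, SLC3A2 by 1.90 and its cystine-carrying partner SLC7A11 by 1.65, while SLC1A1 fell (log2 change -1.23). WARS1 led the synthetases at 1.76, followed by SARS1 at 1.37 and AARS1 at 1.30, and FARSA fell (log2 change -0.53), which did not pass without culture 1 or without culture 2. Of 9 transcripts that host small nucleolar RNAs 5 rose and 2 fell (0 without culture 1, 1 without culture 2). ZFAS1 rose by 1.33 (another probe set gave -0.15) and SNHG32 by 1.23. None of 39 cytosolic ribosomal protein genes passed in either direction, and their changes lay between -0.09 and 0.20.

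Most ER chaperones rose. Of 23 tested, 16 rose and 0 fell, with medians of 1.21, 1.42 and 0.32 in pairs 1, 2 and 3. HSPA5, which encodes BiP, the main ER chaperone and the classic mark of glucose shortage (GRP78), read 5172, 4160.2 and 5013 in controls 1, 2 and 3 and 11704, 12017 and 8163 in starved cultures 1, 2 and 3 and rose by 1.14 (SE 0.13, limma adjusted p = 0.000395). HSP90B1, which encodes GRP94, read 2144, 1733 and 2434 in controls 1, 2 and 3 and 4858, 4649 and 2891 in starved cultures 1, 2 and 3 and rose by 0.95 (SE 0.18, limma adjusted p = 0.00371). Starved cultures 1 and 2 were about equal in both genes, and starved culture 3 was the lowest starved culture. DNAJB9, a BiP cochaperone, read 175, 222 and 271 in controls 1, 2 and 3 and 1929.8, 3748 and 916 in starved cultures 1, 2 and 3 and rose by 3.07, the largest rise of the list. HSPA13, HYOU1, SDF2L1, CRELD2 and MANF rose by 2.24, 1.62, 1.52, 1.47 and 1.36. Calreticulin (CALR) did not pass (log2 change 0.59, limma adjusted p = 0.0552). A dimmer CALR probe set changed by 1.51, 1.04 and 0.52 in pairs 1, 2 and 3, and another by -0.56, 1.24 and -0.09.

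Genes of disulfide exchange, degradation and export from the ER rose in part. Of 14 protein disulfide isomerases and oxidases 7 rose and 0 fell, with PDIA4 at 0.88, P4HB at 0.69 and the oxidase ERO1A at 0.96, although another ERO1A probe set gave -0.22. Of 25 genes of ER-associated degradation (ERAD) 10 rose and 2 fell (1 without culture 1). HERPUD1, a membrane scaffold of ERAD, read 649, 463 and 909 in controls 1, 2 and 3 and 4128, 5807 and 3571 in starved cultures 1, 2 and 3 and rose by 2.75 (SE 0.27, limma adjusted p = 0.000252), with each starved culture far above its own control. SEL1L, its ligase adaptor, read 317, 282 and 265 in controls 1, 2 and 3 and 2157, 2057 and 529 in starved cultures 1, 2 and 3 and rose by 2.19. Of 39 genes of translocation into the ER and of COPII vesicles 24 rose and 0 fell, with SEC24D at 2.50, SEC23B at 1.40, SEC24A at 1.30 and the channel SEC61A1 at 0.92. Of 25 N-glycosylation and hexosamine genes 7 rose and 0 fell, led by GFPT1, the first enzyme of hexosamine synthesis, at 1.66. The counts of rises in 3 of these lists shrank when an 18 h culture was left out: without culture 1 to 2 isomerases, 6 export genes and 2 glycosylation genes, and without culture 2 to 3, 6 and 4. Over all genes tested the rises shrank too, from 1334 to 589 without culture 1 and to 753 without culture 2.

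Many immediate-early genes, most of which code for transcription factors that growth signals and stress switch on within minutes, were higher after hours of starvation. Of 25 tested 17 rose and 2 fell (1 without culture 1), with medians of 1.04, 1.86 and 0.95 in the 3 pairs. EGR1 read 434, 721 and 272 in controls 1, 2 and 3 and 5774, 8879.5 and 4489 in starved cultures 1, 2 and 3 and rose by 3.78 (SE 0.51, limma adjusted p = 0.000895). FOS read 64.7, 96.8 and 77.8 in controls 1, 2 and 3 and 532, 3162 and 688 in starved cultures 1, 2 and 3 and rose by 3.65 (SE 0.71, limma adjusted p = 0.0045). Starved culture 2 was the highest in both genes. FOSB rose by 4.60 from control signals of at most 5.04, FOSL1 by 2.33, JUN by 1.90 and MAFF by 2.96, while ZFP36L2, which destabilises mRNAs, fell (log2 change -1.62). Of 22 genes of MAP kinase feedback 9 rose and 3 fell (13.6%, near the 15.4% of all genes tested). DUSP1, a phosphatase that switches MAP kinases off, read 109, 120.0 and 108 in controls 1, 2 and 3 and 2034, 4413 and 787 in starved cultures 1, 2 and 3 and rose by 4.03 (SE 0.46, limma adjusted p = 0.000453), and its other probe sets gave 0.19 to 3.49. DUSP5 rose by 3.56 and ERRFI1, an inhibitor of the EGF receptor, by 1.82, whereas DUSP6, which follows ERK activity in many cells, did not pass (0.20, limma adjusted p = 0.781). Of 13 Kruppel-like factors 5 rose and 1 fell (0 without culture 1 or without culture 2), with KLF4 at 2.62, KLF6 at 2.09 and KLF10 at 1.59. Of 16 EGF receptor ligands and YAP targets 9 rose and 1 fell (0 without culture 1 or without culture 2). HBEGF read 66.5, 98.2 and 82.9 in controls 1, 2 and 3 and 707, 1254 and 337 in starved cultures 1, 2 and 3 and rose by 2.95 (SE 0.28, limma adjusted p = 0.000221). EREG rose by 2.03, CCN1 by 2.37 and CCN2 by 3.22.

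**Figure D3:**
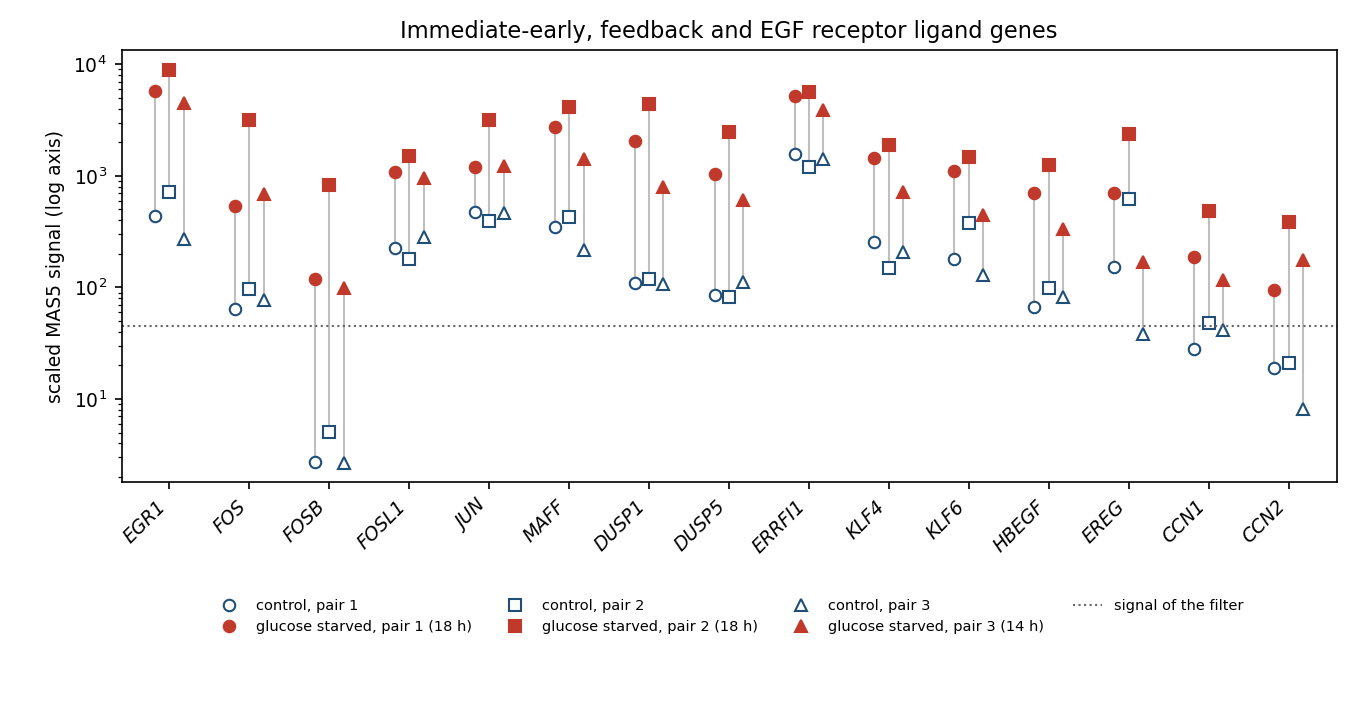
Scaled MAS5 signal (log axis) of 15 immediate-early, feedback, Kruppel-like and EGF receptor ligand genes in the 3 culture pairs, with open symbols for controls, filled symbols for starved cultures, triangles for the 14 h pair and a dotted line at the filter level of 45.5. Every starved culture lies above its own control, with EREG in control 2 (617) above the starved culture of pair 3 (168).

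Secreted factors were mixed. Of 17 stress and angiogenic signals 5 rose and 3 fell (17.6%, near the 15.4% of all genes tested). Without culture 1 the rises were 5 and the falls 0. GDF15, a stress hormone of the TGF-beta family, read 765, 578 and 925 in controls 1, 2 and 3 and 3794, 8271 and 3456 in starved cultures 1, 2 and 3 and rose by 2.67 (SE 0.38, limma adjusted p = 0.00117). VEGFA, the main angiogenic factor, read 199, 382 and 248 in controls 1, 2 and 3 and 1142, 2902 and 972 in starved cultures 1, 2 and 3 and rose by 2.45 (SE 0.25, limma adjusted p = 0.000295), with all starved cultures above all controls. FGF21 rose by 2.55 from control signals of at most 16.8, and its starved culture 2 reached only 29.5 against 168 and 168 in the others. EDN1 and FGFBP1 fell (log2 changes -1.37 and -1.16). Of 28 targets of hypoxia-inducible factor 11 rose (4 without culture 1, 7 without culture 2) and 3 fell (1 without culture 1, 1 without culture 2). VEGFA, ADM, NDRG1 and ANKRD37 were among the rises, and the carbonic anhydrase CA12 fell (log2 change -1.16).

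Some genes of autophagy and cell death also changed. Of 41 autophagy and lysosome genes 15 rose and 1 fell (7 rose and 0 fell without culture 1, and again without culture 2). MAP1LC3B, a protein of the autophagosome membrane, read 387, 442 and 543 in controls 1, 2 and 3 and 2767, 2944 and 1032 in starved cultures 1, 2 and 3 and rose by 2.15 (SE 0.28, limma adjusted p = 0.000837). WIPI1, GABARAPL1 and the lysosomal cholesterol carrier NPC1 rose by 3.21, 1.49 and 1.55. Of 33 genes of the BCL2 family and death receptors 11 rose (6 without culture 1) and 7 fell (4 without culture 1 and 3 without culture 2). The shares were 33.3% and 21.2%, against 11.6% and 15.4% of all genes tested. TNFRSF10B, which encodes the death receptor DR5, read 379.8, 454 and 412 in controls 1, 2 and 3 and 1705, 2410.3 and 887 in starved cultures 1, 2 and 3 and rose by 1.88 (SE 0.20, limma adjusted p = 0.000375). PMAIP1, which encodes the pro-death protein NOXA, rose by 2.21 and the survival factor MCL1 by 0.80, while the executioner caspase CASP6 fell (log2 change -1.57). Of 23 genes known as p53 targets 8 rose and 4 fell (17.4%, near the 15.4% of all genes tested), and 1 fell without culture 1 or without culture 2. CDKN1A, which encodes the cell cycle inhibitor p21, read 14.5, 73.5 and 28.5 in controls 1, 2 and 3 and 405, 1597 and 109.9 in starved cultures 1, 2 and 3 and rose by 3.48 (SE 0.39, limma adjusted p = 0.000428). GADD45A and GADD45B rose by 3.06 and 3.29, and BAX, FAS and DDB2 fell (log2 changes -0.52, -0.68 and -1.03).

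Few cytosolic heat shock genes passed the test. Of 20 tested 3 rose (15%, near the 11.6% of all genes tested) and 1 fell. The medians were -0.34, 0.18 and -0.35 in pairs 1, 2 and 3. Without culture 1 the counts were 1 and 0, and without culture 2 they turned to 1 rise and 7 falls. HSPA6, an HSP70 gene silent in unstressed cells, read 3.76, 18.3 and 2.40 in controls 1, 2 and 3 and 1094, 6900.5 and 37.8 in starved cultures 1, 2 and 3 and rose by 5.82 (SE 0.76, limma adjusted p = 0.000801), mostly in the 18 h cultures. DNAJB1 and DNAJB4 rose by 1.86 and 1.86, and FKBP4 fell (log2 change -0.65). Of 27 NRF2 antioxidant genes 8 rose (5 without culture 2) and 2 fell (0 without culture 1). HMOX1, heme oxygenase, read 285, 116 and 632 in controls 1, 2 and 3 and 2644, 4214 and 2019 in starved cultures 1, 2 and 3 and rose by 3.33 (SE 0.62, limma adjusted p = 0.0039), and OSGIN1 and SRXN1 rose by 2.86 and 1.73.

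Most genes of DNA replication and mitosis fell. Of 52 genes of replication and G1/S 41 fell and 1 rose, the licensing factor CDC6 (1.05), and of 45 genes of mitosis 33 fell and 0 rose. The median changes of the replication list were -1.49, -1.21 and -0.18 in pairs 1, 2 and 3, and those of the mitosis list were -1.28, -0.87 and -0.25. SKP2, a ubiquitin ligase subunit that drives entry into S phase, read 1258, 1208 and 1354 in controls 1, 2 and 3 and 124, 102 and 769 in starved cultures 1, 2 and 3 (log2 change -2.53, SE 0.39, limma adjusted p = 0.00169). E2F8, a transcription factor of S phase, read 269, 325 and 219 in controls 1, 2 and 3 and 20.6, 27.5 and 106 in starved cultures 1, 2 and 3 (log2 change -2.57, SE 0.39, limma adjusted p = 0.00162). Starved cultures 1 and 2 of both genes lay far below their controls, and starved culture 3 lay in between. MCM10, GINS2 and PCNA of the replication fork changed by -1.96, -1.82 and -1.46 (another GINS2 probe set gave 0.22), and AURKA and PLK1, kinases of mitosis, by -1.57 and -1.45. MKI67 did not pass at its brightest probe set (log2 change -0.49, limma adjusted p = 0.0876) and neither did CDK1 (-0.41, limma adjusted p = 0.192). The dimmer probe sets of both genes were lower in pairs 1, 2 and 3. Their log2 changes were -0.67, -0.79 and -1.26 for MKI67 and -1.09 and -0.996 for CDK1. Without culture 1 the calls dropped to 17 replication and 16 mitosis genes, and without culture 2 to 25 and 26. Arrays cannot tell fewer dividing cells from less RNA of these genes per cell.

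Part of the Wnt targets and intestinal stem cell genes fell. HT-29 cells carry a mutant APC and so have an active Wnt pathway. Of 23 tested 12 fell (8 without culture 1, 9 without culture 2) and 1 rose (0 without culture 2), with medians of -1.05, -1.21 and -0.28 in the 3 pairs. AXIN2, a feedback inhibitor and general Wnt target, read 491, 367 and 388 in controls 1, 2 and 3 and 31.5, 53.6 and 140.1 in starved cultures 1, 2 and 3 (log2 change -2.61, SE 0.41, limma adjusted p = 0.00172). SOX9, a transcription factor of crypt cells, read 813, 1027 and 773 in controls 1, 2 and 3 and 169, 249.6 and 162 in starved cultures 1, 2 and 3 (log2 change -2.15, SE 0.15, limma adjusted p = 3.07e-05). SOX9 was as low at 14 h as at 18 h, while AXIN2 was higher at 14 h. BMP4, MYB, SP5, ZNRF3 and RNF43 changed by -2.73, -2.34, -2.23, -1.57 and -1.41. LGR5, the stem cell receptor, read 393, 61.5 and 394 in controls 1, 2 and 3 and 20.2, 3.75 and 295 in starved cultures 1, 2 and 3 (log2 change -2.39, SE 0.59, limma adjusted p = 0.0126). Its signal at 14 h stayed near that of control 3, and control 2 was lower than the other controls. MYC fell by less (log2 change -0.62, SE 0.18, limma adjusted p = 0.0236), and its antagonist MXD1 rose by 2.57. Outside these lists, the largest falls were those of CXCR4, a chemokine receptor, and LFNG, a glycosyltransferase of Notch. CXCR4 read 915, 186 and 1220.5 in controls 1, 2 and 3 and 55.9, 45.5 and 115 in starved cultures 1, 2 and 3 (log2 change -3.05, SE 0.45, limma adjusted p = 0.00144). LFNG read 349, 252 and 362 in controls 1, 2 and 3 and 46.2, 8.05 and 105 in starved cultures 1, 2 and 3 (log2 change -2.91). The long non-coding RNA HOTAIR changed by -2.11.

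**Figure D4:**
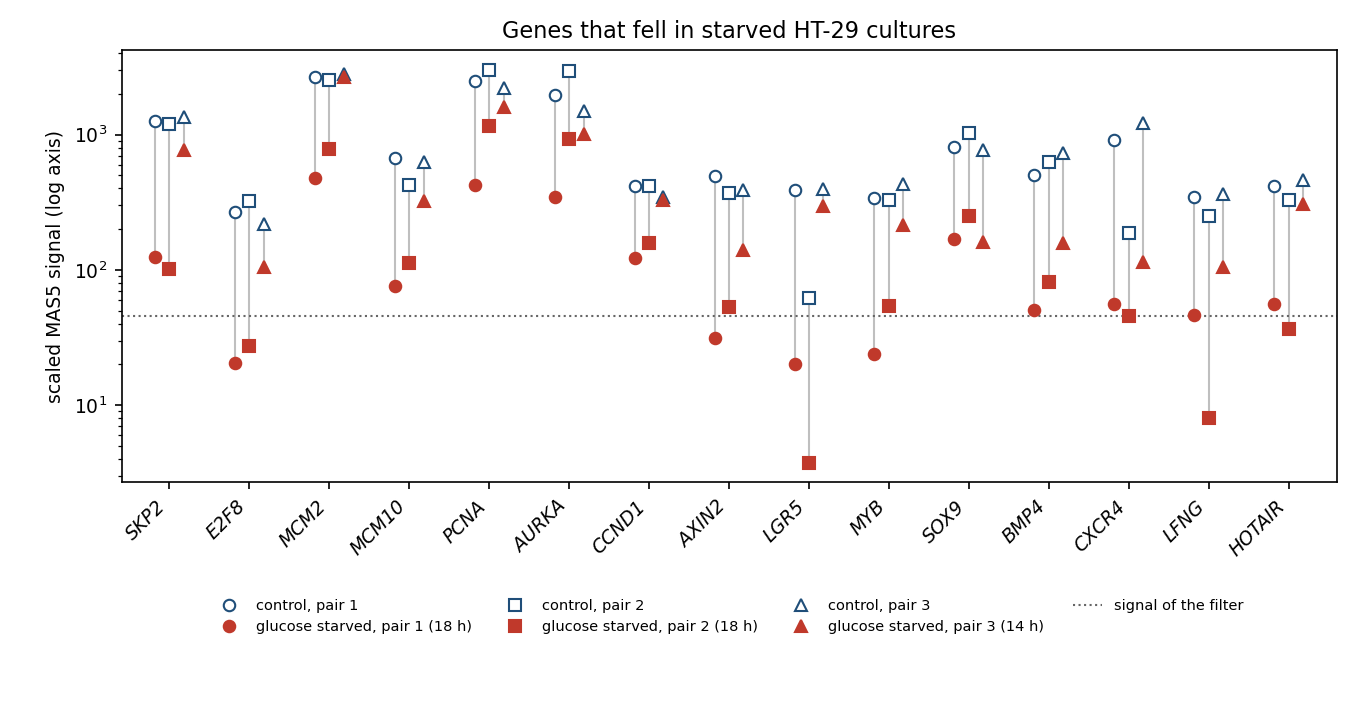
Scaled MAS5 signal (log axis) of 15 genes that fell, with open symbols for controls, filled symbols for starved cultures, circles and squares for the 18 h pairs, triangles for the 14 h pair and a dotted line at the filter level of 45.5. The 14 h culture lies close to its control for LGR5 (295 against 394) and MCM2 (2660.0 against 2813) but not for SOX9 (162 against 773) or CXCR4 (115 against 1220.5).

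Part of the lipid synthesis genes fell. Of 20 sterol genes 8 fell and 1 rose (5 fell without culture 1, 6 without culture 2), with medians of -0.49, -0.43 and -0.50 in pairs 1, 2 and 3. INSIG1, a sterol-responsive brake on SREBP, read 299.9, 708 and 322 in controls 1, 2 and 3 and 86.3, 366 and 118 in starved cultures 1, 2 and 3 (log2 change -1.36, SE 0.20, limma adjusted p = 0.0013). SQLE and DHCR7 of cholesterol synthesis changed by -0.82 and -0.89, while HMGCS1 did not pass (-0.12, limma adjusted p = 0.808) and varied between controls from 122 to 802. The sterol carrier STARD4 was the member that rose, though not without culture 1 or without culture 2 (0.82). Of 18 fatty acid genes 5 fell and 0 rose (2 fell without culture 1 and 3 without culture 2), among them FASN at -0.75, SCD at -0.71 and ELOVL6 at -1.02.

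Part of the mitochondrial and proteasome genes fell, mostly by less than 1 on the log2 scale. Of 55 mitochondrial ribosomal proteins 25 fell and 1 rose (median -0.33), with MRPL16 at -1.29 and MRPL34 at -1.14. Of 57 nuclear-encoded respiratory chain genes 15 fell and 1 rose (median -0.17), with NDUFB10 at -0.71. Of 31 proteasome subunits 15 fell and 1 rose (median -0.24), with PSMD3 at -0.65. Without culture 1 the falls in these 3 lists numbered 11, 2 and 5, and without culture 2 they numbered 11, 1 and 5, and the rise in the first and last list was lost in both cases and that of the respiratory chain without culture 1. Over all genes tested the falls shrank from 1767 to 604 and 782 in the same fits. The mitochondrial protease LONP1, an ATF4 target, rose by 1.15. Of 48 ribosome biogenesis genes 13 fell (6 without culture 1) and 2 rose (0 without culture 2).

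Few glucose-handling genes themselves passed the test. Of 30 genes of glucose transport, glycolysis and the pentose phosphate path 1 rose and 3 fell, with a median of -0.06. These were 3.3% and 10% of the list, against 11.6% and 15.4% of all genes tested. The rise was that of the glucose transporter SLC2A1, which read 315, 673 and 229.8 in controls 1, 2 and 3 and 557, 979 and 377 in starved cultures 1, 2 and 3 (log2 change 0.68, SE 0.18, limma adjusted p = 0.0154), and it did not pass without culture 1, with the 6 HT-29 arrays alone or with no replicate block. Of the 3 falls 1 passed without culture 1. PGAM1, HK1 and RPIA changed by -0.59, -0.54 and -0.59, and LDHA did not pass (-0.17, limma adjusted p = 0.0948). TXNIP, which follows glucose in many cells, read 45.4, 43.7 and 40.4 in controls 1, 2 and 3 and 22.2, 45.4 and 33.5 in starved cultures 1, 2 and 3, at or below the filter level on all 6 arrays, and did not pass (log2 change -0.35, limma adjusted p = 0.295). Its relative ARRDC3 rose by 1.44. PCK2, the mitochondrial enzyme that makes phosphoenolpyruvate from amino acid carbon, read 80.0, 235 and 109 in controls 1, 2 and 3 and 685, 501 and 429 in starved cultures 1, 2 and 3 and rose by 2.00 (SE 0.28, limma adjusted p = 0.00114).

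Few markers of colon differentiation passed the test. Of 18 absorptive colonocyte genes 1 rose (0 without culture 1) and 0 fell (1 without culture 2), and of 14 goblet and secretory genes 0 rose and 1 fell (0 without culture 1 or without culture 2). The rise made up 5.6% of the first list and the fall 7.1% of the second, against 11.6% and 15.4% of all genes tested. AGR2, an ER protein of goblet cells, read 2234, 2763 and 2203 in controls 1, 2 and 3 and 8539, 7733 and 2021 in starved cultures 1, 2 and 3 and did not pass (1.10, limma adjusted p = 0.0516), and starved culture 3 lay below its control. A dimmer AGR2 probe set changed by 3.24, 3.26 and 0.55 in pairs 1, 2 and 3. Of 25 junction genes 6 rose (3 without culture 1) and 4 fell (16%, near the 15.4% of all genes tested). The falls numbered 1 without culture 1 and 2 without culture 2. CLDN1 rose by 1.55 and the laminin chain LAMB3 by 1.97. CLDN2, a pore-forming claudin of crypt cells, read 270.5, 144 and 935 in controls 1, 2 and 3 and 13.7, 28.9 and 185 in starved cultures 1, 2 and 3 (log2 change -2.75, SE 0.39, limma adjusted p = 0.00114), with control 3 far above the other controls. Of 28 NF-kappaB genes 4 rose (14.3%, near the 11.6% of all genes tested) and 2 fell (0 without culture 1, 1 without culture 2), with LCN2 at 1.95 and NFKBIA at -0.81. CXCL8 did not pass (0.70, limma adjusted p = 0.0598). Of 31 interferon-induced genes 7 rose (4 without culture 1 and 2 without culture 2) and 1 fell (0 without either), with ISG20 at 2.44.

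The 14 h array was the weaker one across the genome. The SD of the log2 changes over all genes was 0.865 and 0.882 in the 18 h pairs and 0.484 in the 14 h pair. In pairs 1, 2 and 3, 1079, 1084 and 338 genes rose by more than 1 on the log2 scale and 1202, 1275 and 208 fell by more than 1. Genes called in a fit without pair 3 were then read in pair 3. Of the 1758 that rose, 79.7% were higher in pair 3 too, against 48.8% of all genes tested. Of these 1758, 95.1% changed by less there, with a median of 0.29 against 0.92. Of the 2411 that fell, 81.5% were lower in pair 3, against 51.2% of all genes tested. Among them 96.9% changed by less (median -0.23 against -0.86). These genes were chosen on pairs 1 and 2, and that choice by itself can leave smaller changes in pair 3. With pair 1 or pair 2 left out in the same way, 92.9% to 95.8% kept their sign and 37.6% to 47.3% changed by less. Those fits held the 14 h pair and called fewer genes, 585 to 774 per direction, so these shares are not like for like with those of pair 3. Time cannot be told apart here from culture 3 and its control, which form 1 pair.

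The difference between 14 h and 18 h was also tested by gene, with the single 14 h array assumed to vary like the replicated groups. Of 11457 genes 367 (3.20%) passed limma at an adjusted p under 0.05, 162 higher (1.41%) and 205 lower (1.79%) at 14 h. Most were weaker changes: 125 rose less and 106 fell less at 14 h, 79 were up at 18 h and down at 14 h, 54 were the reverse, and 2 rises and 1 fall were stronger. With the deposited scaling the counts were 231 higher and 141 lower, and the median difference over all genes moved from 0.08 to 0.18. Without an intensity trend in the spread, 2 genes passed, with 1926 at an unadjusted p under 0.05, so single genes called here rest on that trend. Without culture 1 the count was 906 and without culture 2 it was 696. Against these shares of 1.79% and 1.41%, 15 of 39 ER translocation and export genes and 11 of 23 ER chaperones were lower at 14 h, and 23 of 52 replication genes were higher.

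SEC24D, a cargo adaptor of COPII vesicles, read 54.3, 64.8 and 83.5 in controls 1, 2 and 3 and 544, 1039 and 113 in starved cultures 1, 2 and 3, and its change at 14 h minus that at 18 h was -3.13 (SE 0.39, limma adjusted p = 0.0031). HYOU1, an ER chaperone also induced by low oxygen, read 1153, 1033 and 1489 in controls 1, 2 and 3 and 4932, 4835 and 2173 in starved cultures 1, 2 and 3, a difference of -1.61 (SE 0.19, limma adjusted p = 0.00285). MCM2, a subunit of the replicative helicase, read 2680.0, 2527 and 2813 in controls 1, 2 and 3 and 478, 784 and 2660.0 in starved cultures 1, 2 and 3, a difference of 2.00 (SE 0.29, limma adjusted p = 0.00584). In these genes starved culture 3 lay closer to its control than either 18 h culture lay to its own. CDKN1A gave -2.59 (limma adjusted p = 0.00285) and HSP90B1 -1.05 (limma adjusted p = 0.0193). Other core genes did not pass in this comparison, with DDIT3 at -1.23 (SE 1.07), ATF3 at -1.40 (SE 0.96), ATF4 at -0.75 (SE 0.28) and ASNS at -0.26 (SE 0.50). A difference that missed the threshold does not show that the times were alike. Of the ATF4 list 3 of 26 genes were lower at 14 h, of the immediate-early list 2 of 25, and of amino acid transporters, sterol genes and Kruppel-like factors 0 of 20, 20 and 13. Over all genes tested the share lower at 14 h was 1.79%, so a count of 0 does not set lists this small apart.

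**Figure D5:**
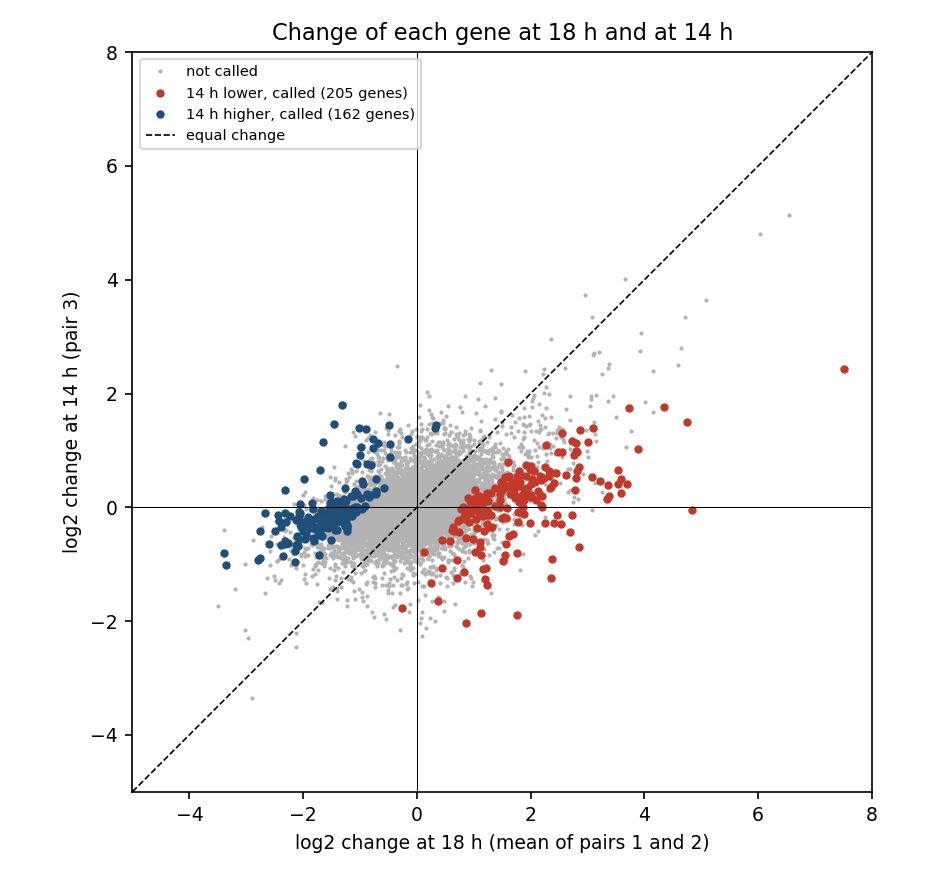
Log2 change of each of the 11457 genes at 18 h (mean of pairs 1 and 2, horizontal axis) and at 14 h (pair 3, vertical axis), with genes called lower at 14 h in red (205), called higher in blue (162), the others in grey and the line of equal change dashed. Most called genes lie near 0 on the 14 h axis while spread along the 18 h axis.

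Starvation was finally compared with that of HT-1080 cells, all at 18 h in that line. Of 11457 genes 65 (0.567%) passed limma for a difference in response, 46 higher (0.402%) and 19 lower (0.166%) in HT-29. These calls depend on few arrays: 7 genes passed without HT-1080 replicate 1, 0 without HT-1080 replicate 2 (806 at an unadjusted p under 0.05), 0 without an intensity trend (1487 at an unadjusted p under 0.05) and 765 without the 14 h culture. Of the core genes, PPP1R15A rose in both lines and by 2.26 more in HT-29 (SE 0.43, limma adjusted p = 0.0455). CDKN1A rose in all 3 HT-29 pairs, its changes were 0.052 and -0.50 in the HT-1080 pairs, and the difference was 3.71 (SE 0.62, limma adjusted p = 0.0267). Genes that growth signals induce were among the other differences. DUSP1, DUSP5, KLF4, CCN2 and HBEGF differed by 4.54, 3.09, 3.33, 3.10 and 3.08. In HT-1080 controls DUSP5 averaged 1751 and CCN2 604, far above the HT-29 controls. On the lower side SOX9 differed by -1.65 (SE 0.23, limma adjusted p = 0.0132) and CLDN2, near background in HT-1080, by -3.41. HSPA5, HERPUD1, ATF4, DDIT3, ASNS and TRIB3 did not pass, with differences between -0.39 (ASNS) and 1.98 (DDIT3, SE 0.85).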

How the data were processed

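The authors deposited MAS5 signals, a linear intensity per probe set, as the submitters' processing notes state, where no version stands. Signals were multiplied per array to 1 shared mean (2% trimmed at each end), 5% of which (5.69) was added before log2. A probe set entered if 2 of 38 arrays reached 40% of the mean (45.5). Only the 41097 of 54675 probe sets with a single gene symbol were used (1801 have more than 1 and 11777 lack one), with the probe set of highest mean per gene.

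Changes were fitted on all 38 arrays by limma 3.58.1 (R 4.3.3) with trend = TRUE, the named control and its treated arrays as a fixed block (5 residual degrees of freedom, 4 for the split by time) and Benjamini-Hochberg adjustment over all genes tested. The descriptions give the pairing, and deviations of same-numbered arrays from their group means correlated at 0.349, 0.629 and 0.445. The fits were tested on simulated data. Changes are log2 differences of the signal plus the offset and understate those of dim genes.

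The genes and the 47 lists were chosen with earlier results of these data known. Of 1369 listed genes 1163 were tested, 81 lay below the filter and 125 had no probe set with their symbol alone. Named were 16 core genes, the 15 largest rises and falls, up to 4 genes per list and the largest differences by time and line. Chosen after their values were seen were BAX, CA12, CALR, CANX, CDC6, CDK1, CEBPG, CREB3L2, CREBRF, CRELD2, CXCL8, DDB2, DUSP6, EDN1, FARSA, FAS, FGFBP1, FOSL1, HMGCS1, JUN, LDHA, MANF, MCL1, MCM2, MKI67, NARS1, NUPR1, P4HB, PCNA, PDIA6, PHGDH, PSAT1, RNF43, SDF2L1, SEC61A1, SLC1A5, SLC6A9, SP5, SQSTM1, STARD4 and ZNRF3, besides genes outside the lists in the closing section. Alternatives were other scalings, offsets, filters and probe sets, no trend, no block, HT-29 arrays alone, 18 h arrays alone and leaving out each array. Counts of list members under some of these were added after seeing the data.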

Additional observations from a re-analysis of the deposited data

Results flagged for a closer look

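Beside HSP90B1, whose change at 14 h minus that at 18 h was -1.05, and CDKN1A at -2.59, the largest differences between the times that passed limma (adjusted p under 0.05) were these. HSPA6 differed by -5.09, WIPI1 by -4.89, GLRX by -3.64, ARMCX3 by -3.34, NIBAN1 by -3.29, ZFAND2A by -3.26, NDRG1 by -3.19 and NUCB2 by -3.17. WIPI1, an autophagy protein, read 404 and 438 in the 18 h cultures and 18.2 in the 14 h culture, with at most 19.6 in the controls. GLRX, glutaredoxin, read 261, 315 and 414 in the controls and 478, 2000.2 and 108 in the starved cultures, up in both 18 h pairs and down in the 14 h pair. ZFAND2A, a proteasome-linked stress protein, read 116, 167 and 144 in the controls and 2640.0, 5760.5 and 416 in the starved cultures.

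In the other direction the 14 h change was higher by 2.58 for SKP2, 2.57 for LRRC20, 2.49 for ZNF367, 2.34 for E2F8, 2.33 for PIK3R1, 2.31 for POLE2, 2.20 for RMI2 and 2.19 for UHRF1. POLE2, a subunit of DNA polymerase epsilon, read 561, 428 and 494 in the controls and 89.7, 80.8 and 449 in the starved cultures. UHRF1, which maintains DNA methylation, read 1185, 1233 and 924 in the controls and 232, 208 and 781 in the starved cultures. For both, the 14 h culture lay near its control.

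The HT-29 change minus the HT-1080 change passed limma for PPP1R15A and CDKN1A among the core genes. Given with them are the 6 largest differences in each direction that passed, CDKN1A included, in genes averaging at least 100 in a group. It was 2.26 for PPP1R15A, 3.71 for CDKN1A, 4.54 for DUSP1, 3.33 for KLF4, 3.18 for ARL14, 3.10 for CCN2 and 3.09 for DUSP5. It was -3.58 for MYCT1, -3.41 for CLDN2, -2.64 for PLEKHF1, -2.56 for OSCAR, -1.95 for GREB1 and -1.90 for ZFP36L2. MYCT1, OSCAR and GREB1 were dim on all 6 HT-29 arrays (at most 28.1), and their difference lay in HT-1080, where their mean signals rose to 277, 217 and 171. PLEKHF1 was dim in HT-29 too (mean 27.6 over the 6 arrays), with changes of -0.38, 0.09 and -1.85 in pairs 1, 2 and 3. ZFP36L2 fell in HT-29 and changed by 0.43 and 0.14 in the HT-1080 pairs. All these differences, by time and by line, were called with an intensity trend in the spread, and without it 2 and 0 genes passed limma.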

How the results depend on the processing

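For the starvation effect in HT-29, the 3101 genes became 2482 to 3254 under other scalings, offsets, filters and probe sets and without an intensity trend. The pairing mattered more: with no replicate block 1865 genes passed, and a fit of the 6 HT-29 arrays alone, with 2 residual degrees of freedom, gave 1161. Leaving out 1 array gave 1189 to 4182, the highest without either array of the 14 h pair and the lowest without control 1. For 14 h minus 18 h, the 367 genes became 239 with the mean of all probe sets, 2 without a trend, 961 with no replicate block and 681 to 906 with 1 array left out. For HT-29 minus HT-1080, the 65 genes became 43 with an offset of 1% of the trimmed mean, 122 with 20%, 0 without a trend (1487 at an unadjusted p under 0.05), 73 with no replicate block, 762 with 18 h arrays only and 0 to 765 with 1 array left out (0, with 806 at an unadjusted p under 0.05, without HT-1080 starved culture 2 or its control). The cause of these moves was not tested. No named gene that passed the test changed direction in these fits. Other probe sets of called genes did: SLC35G1 gave 0.34 and 0.13, ERO1A -0.22, NGLY1 -0.13, EIF3A -0.035, MLXIP 0.13, GINS2 0.22, ZFAS1 -0.15, EPB41L4A-AS1 -0.35 and EZR -0.77 in log2 change.

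The limits are these. The 14 h time has 1 array, and its spread was taken from the other groups. The list median of goblet genes changed sign with the scaling.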

Other observations

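Some genes outside the lists also moved in HT-29 cells, and were chosen after their values were seen. They are given as single genes, and no list stands behind them. SCEL (sciellin) rose by 2.26, CSTA (cystatin A) by 2.22 and the keratin gene KRT80 by 1.47. SCEL read 149.9, 261 and 39.3 in the controls and 1220.2, 734 and 221 in the starved cultures, with each starved culture above its own control. IL20RB and IL1RAP, which encode interleukin receptor subunits, rose by 3.04 and 1.51, and IL1RL1 reached 572 in starved culture 1 alone, with 26.9 and 8.64 in the others. HKDC1, a member of the hexokinase family, read 191, 101 and 363 in the controls and 1529.9, 862 and 724 in the starved cultures and rose by 2.33 (SE 0.41, limma adjusted p = 0.00301). FBXO32, a ubiquitin ligase of muscle wasting, rose by 2.56, and CDKN2B, which encodes the cell cycle inhibitor p15, by 2.16. ARG2 and ASS1, enzymes of arginine metabolism, rose by 2.30 and 1.78. A dimmer ARG2 probe set changed by 1.17, 1.73 and -0.52 in pairs 1, 2 and 3.

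Among genes that fell, MAT2A, which makes the methyl donor S-adenosylmethionine, read 2019.7, 1484 and 2016 in the controls and 424, 264 and 1110.2 in the starved cultures (log2 change -1.85, SE 0.26, limma adjusted p = 0.0011). The repair genes MSH6, UNG and BARD1 changed by -1.37, -1.40 and -1.47, the homeobox genes HOXB6 and HOXB7 by -1.35 and -1.42, and the miRNA-processing nuclease DICER1 by -1.38. ARF4, COPB1 and GOLGB1, which encode proteins of the Golgi and its vesicles, rose at 18 h, and their changes at 14 h were lower by the test of the difference. ARF4 differed by -0.98 (limma adjusted p = 0.0164), COPB1 by -0.73 (0.0362) and GOLGB1 by -1.16 (0.0442).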
